A study of Mus musculus with 10 samples.

Results

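Fatty acid oxidation and ketone genes were followed in obstructed mouse kidneys with and without Padi4. The group holds 40 genes, chosen by name, out of 54532 in the deposited table. Of these, 21 act in mitochondria, 11 act in or on peroxisomes, 3 bring fatty acids into the cell or activate them, and 5 regulate the pathway. Crat, Acad11, Eci2 and Scp2 products are known in more than 1 compartment, so the split between the arms follows the usual textbook assignment.

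The tested kidneys came from Padi4-knockout mice and were set against kidneys from wild-type (WT) mice, with 5 libraries in each group. Padi4 encodes peptidylarginine deiminase 4, which citrullinates histones and is known for its part in neutrophil extracellular traps. Both groups had 10 days of unilateral ureteral obstruction, in which the ureter of 1 kidney is tied off and its tubules atrophy, so no library shows an unobstructed kidney. Strain, age, sex, the kind of knockout allele and whether each library came from a separate animal are left unstated by the labels. All p-values thus reflect only the sample-to-sample spread, which could be technical.

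Fatty acids are the main fuel of the proximal tubule, the nephron segment richest in mitochondria and peroxisomes. Long chains cross into mitochondria as carnitine esters and are then shortened by cycles of dehydrogenation, hydration, a second dehydrogenation and thiolysis, with electrons passed on through the electron transfer flavoprotein. Peroxisomes run a parallel cycle on very long and branched chains, and the nuclear receptor PPAR alpha with its coactivators drives many genes of both arms. Loss of this programme is a known feature of injured and fibrotic kidneys.

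Levels are given in FPKM, a read level scaled to gene length and between libraries, as deposited. The scaling between libraries followed a size factor, the median over genes of reads relative to all libraries, and not the read total. That factor was 0.859 in WT1 and 0.977 to 1.057 in the others, so ratios of WT1 to other libraries rest on it. Each library held 15002922 to 16886945 reads in genes. Differences are Padi4-knockout minus WT in mean log2(FPKM + 1), from limma across the 13435 genes whose mean reached 1 FPKM. This scale understates the change of low genes. All 40 members passed that filter. Padi4 itself was near the detection limit in both groups, at 0.256 ± 0.164 FPKM in Padi4-knockout kidneys and 0.358 ± 0.183 FPKM in WT kidneys (SD, n = 5 each; exact two-sided permutation p = 0.373, where 0.00794 is the smallest possible). At 101 reads over the 5 Padi4-knockout libraries and 139 over the 5 WT libraries, the gene did not check the genotype labels.

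WT1 stood apart from the other libraries and is described before any comparison. The pathway was at its highest there: 31 of 40 members had their highest value of all 10 libraries in WT1, as did 19.8% of all genes tested. Every member was higher in WT1 than in the mean of WT2 to WT5, by 1.005-fold for Decr2, by a median of 1.65-fold and by up to 3.87-fold for Ehhadh. In 26 members the ratio was above 1.5 and in 10 it was above 2. At the other end, WT2 held the lowest value for 25 of 40 members, against 18.3% of all genes. The WT group thus held both the highest and the lowest libraries for most members, and the Padi4-knockout libraries lay between them.

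In their summed level, proximal tubule markers had the same highest and lowest libraries, and the macrophage list had its lowest sum in WT1. Single proximal tubule markers had their lowest value in several libraries, among them Lrp2 in KO5 and Dpep1 in WT1. The 18 proximal tubule markers, all measured, had their highest value in WT1 in 15 cases, and their summed level was 888 to 1576 FPKM over the Padi4-knockout libraries and 764 to 2716 FPKM over the WT libraries. Without WT1 the highest WT sum was 1186 FPKM. The 10 macrophage markers, 9 of them past the filter, summed to 864 to 1096 FPKM in Padi4-knockout kidneys and 501 to 1079 FPKM in WT kidneys. Their sum was 501 FPKM in WT1 and 957 FPKM in WT2. Reads from the mitochondrial genome made up 3.46% to 5.07% of reads in Padi4-knockout libraries, 8.11% in WT1 and 3.18% to 5.79% in WT2 to WT5. The part of tubule content, macrophage content and mitochondrial reads in the results on the 40 genes was not tested. In whole-kidney RNA, fewer tubule cells and less RNA per tubule cell cannot be told apart.

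**Figure D1:**
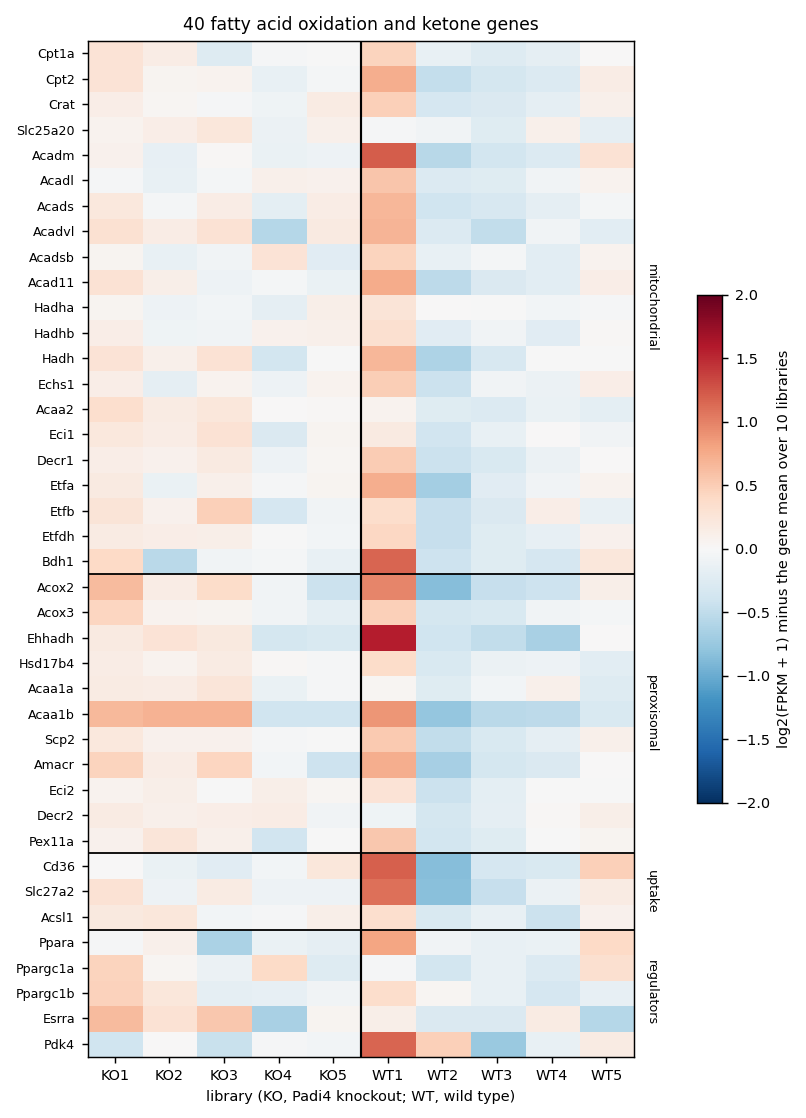
Each row is 1 of the 40 genes and each column 1 library, Padi4-knockout (KO) left and WT right; colour gives log2(FPKM + 1) minus the gene's mean over the 10 libraries, with mitochondrial, peroxisomal, uptake and regulator genes from top to bottom. The WT1 column is the reddest and holds the highest value of 31 of 40 genes (19.8% of all genes tested). The WT2 column is the bluest and holds the lowest value of 25 (18.3% of all genes tested).

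The genes with wide ranges across libraries included Ehhadh, Acadm, Cd36 and Slc27a2, which were 2.58-fold to 3.87-fold higher in WT1 than in the mean of the other WT libraries. Acaa1b had the largest genotype difference of the 40. Their promoter windows, 250 bases before to 50 bases after the RefSeq start on GRCm38.p6, are shown 5′ to 3′ so that the start regions of genes that varied together can be compared, with capitals marking TGACCT, the reverse complement of the nuclear receptor core motif AGGTCA. For Slc27a2 and Cd36 this start lies inside the deposited gene model.
Slc27a2, chr2:126552774-126553073, plus strand: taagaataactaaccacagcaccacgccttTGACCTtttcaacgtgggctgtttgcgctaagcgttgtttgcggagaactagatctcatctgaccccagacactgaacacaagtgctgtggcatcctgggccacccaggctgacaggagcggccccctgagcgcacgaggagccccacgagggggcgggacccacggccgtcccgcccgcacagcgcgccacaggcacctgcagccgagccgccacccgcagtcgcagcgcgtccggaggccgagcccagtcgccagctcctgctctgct
Acadm, chr3:153944594-153944893, minus strand: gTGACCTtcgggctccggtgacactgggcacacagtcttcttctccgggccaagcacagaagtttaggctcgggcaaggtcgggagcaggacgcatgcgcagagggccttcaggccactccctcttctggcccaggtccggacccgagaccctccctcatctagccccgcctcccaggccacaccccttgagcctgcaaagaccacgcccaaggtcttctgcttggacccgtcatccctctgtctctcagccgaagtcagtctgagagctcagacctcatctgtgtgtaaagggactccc
Cd36, chr5:17835847-17836146, minus strand: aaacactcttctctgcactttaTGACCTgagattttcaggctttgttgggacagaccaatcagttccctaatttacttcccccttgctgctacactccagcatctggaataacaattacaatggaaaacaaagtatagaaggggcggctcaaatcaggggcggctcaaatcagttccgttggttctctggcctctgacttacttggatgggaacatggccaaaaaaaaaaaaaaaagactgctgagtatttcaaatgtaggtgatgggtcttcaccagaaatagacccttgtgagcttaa
Ehhadh, chr16:21787785-21788084, minus strand: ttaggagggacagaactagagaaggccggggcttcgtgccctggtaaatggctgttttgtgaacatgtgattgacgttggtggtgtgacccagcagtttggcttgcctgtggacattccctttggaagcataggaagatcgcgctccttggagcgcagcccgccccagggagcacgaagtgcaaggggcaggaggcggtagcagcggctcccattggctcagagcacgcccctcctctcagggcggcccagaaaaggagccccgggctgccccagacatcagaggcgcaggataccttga
Acaa1b, chr9:119157044-119157343, minus strand: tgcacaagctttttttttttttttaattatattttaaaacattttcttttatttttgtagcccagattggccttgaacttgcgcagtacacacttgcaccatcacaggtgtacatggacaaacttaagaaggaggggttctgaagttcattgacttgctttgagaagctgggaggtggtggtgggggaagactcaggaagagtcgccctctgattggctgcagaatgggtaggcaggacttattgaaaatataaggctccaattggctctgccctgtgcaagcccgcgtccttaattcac
The motif begins 220 bases before the start in the Slc27a2 window, 249 bases before it in Acadm and 228 bases before it in Cd36. Ehhadh and Acaa1b have no match in these windows. Acox2 and Bdh1 were also high in WT1, at 2.72-fold and 2.65-fold the mean of the other WT libraries. They are not shown, and neither is among the members with a match. Promoters were found for 34 of 40 members, 37 windows in all, and AGGTCA occurred on either strand in 7 of them (18.9%), against 5340 of 32851 windows (16.3%) over all genes. The direct repeat AGGTCANAGGTCA was in 0 of 37 member windows and 0.0396% of all windows, and TCAAGGTCA, the extended site of estrogen-related receptors, in 0 of 37 and 0.423%. Both longer motifs contain AGGTCA. A match in a window is a description of the letters there and not a bound site.

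Across all 10 libraries no fatty acid oxidation or ketone gene passed the test. The count was 0 of 40 at an adjusted p under 0.05, with limma and Benjamini-Hochberg adjustment over all genes, and 0.0% of all genes tested passed. The lowest adjusted p among members was 0.976 in limma and 0.968 in limma-voom on recovered reads, which also called 0 genes. At an unadjusted p under 0.05 there was 1 member by each of these fits. It was Acaa2, with the higher value in Padi4-knockout kidneys, against 4.05% of all genes in limma, and 2.05% in that direction. Over the 40 members, 30 had a higher mean in Padi4-knockout kidneys and 10 a lower one, where 51.6% of all genes tested had a difference above 0. The median difference was 0.11 for the members and 0.005 for all genes tested. In no member were the groups free of overlap, as in 0.744% of all genes.

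With WT1 left out, most of the set had higher values in Padi4-knockout kidneys. Still, 0 of 40 passed the adjusted threshold (0.0% of all genes). Every member was higher in WT1 than in the mean of the other WT libraries. A rise in the differences without WT1 was thus fixed in advance. Of the members, 37 then had a higher mean in Padi4-knockout kidneys and 3 a lower one (52.0% of all genes had a difference above 0), with a median difference of 0.24 against 0.007 for all genes. An unadjusted p under 0.05 was reached by 12 members, each with the higher value in Padi4-knockout kidneys, where 6.82% of all genes did so, 3.49% with the higher and 3.33% with the lower value in Padi4-knockout kidneys. The groups no longer overlapped in 3 members, Acaa2, Hsd17b4 and Eci2, each higher in Padi4-knockout kidneys, against 2.14% of all genes in either direction and 0.737% in that one. The lowest adjusted p was 0.547 (limma), for Acaa2. With WT2 left out instead, the lowest library for most members, 24 members had a higher Padi4-knockout mean. In that fit 1 member had an unadjusted limma p under 0.05, as had 446 of 13435 genes tested. Proximal tubule markers moved with the members: 18 of 18 had a higher mean in Padi4-knockout kidneys once WT1 was left out, with a median difference of 0.39, and 13 of 18 with a median of 0.10 when it was kept. Their part in the members' differences was not tested.

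The 4 classes of genes were then taken apart. The 21 mitochondrial genes had a median difference of 0.09, with 15 higher and 6 lower in Padi4-knockout kidneys, and 0.23 with 20 higher and 1 lower when WT1 was left out. The 11 peroxisomal genes had a median of 0.15 with 10 higher and 1 lower, and 0.26 with 11 higher and 0 lower without WT1. Without WT1, 7 of 11 peroxisomal genes and 4 of 21 mitochondrial genes had an unadjusted limma p under 0.05, against 6.82% of all genes. Each of these was higher in Padi4-knockout kidneys, as were 3.49% of all genes. Among the other pathway genes described below, the counts were 6 of 20 peroxisomal genes and 5 of 18 mitochondrial and ketone genes. Among proximal tubule markers the count was 6 of 18, each higher in Padi4-knockout kidneys. The difference between the arms was not tested. The 3 uptake and activation genes had a median of 0.06, or 0.29 without WT1, and the 5 regulators 0.11, or 0.21 without WT1. The uptake median was -0.14 without WT2, -0.05 without WT3 and -0.00476 without KO1, and the mitochondrial median was 0.01 without WT2 and 0.03 without WT3.

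**Figure D2:**
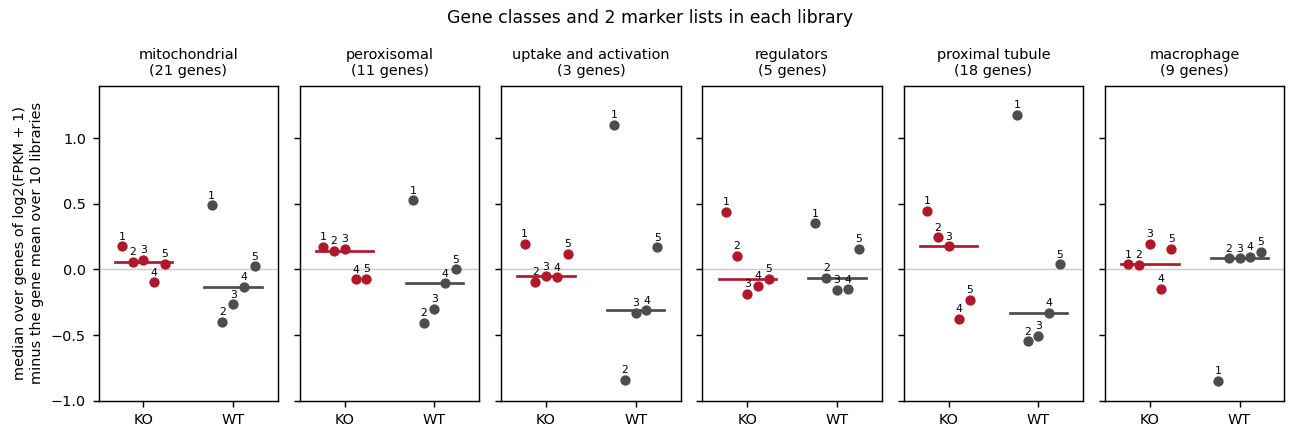
Points are libraries, numbered by replicate, Padi4-knockout (KO) left of WT in each panel, and bars are group medians; the vertical axis is the median over a class of log2(FPKM + 1) minus each gene's mean. In the mitochondrial panel the KO libraries span -0.10 to 0.18 and the WT libraries -0.40 to 0.49, with WT1 on top there and among proximal tubule markers (1.18), while the macrophage markers have WT1 at the bottom (-0.85).

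Entry of long-chain fatty acids into mitochondria begins with the carnitine shuttle. Cpt1a, the outer-membrane carnitine palmitoyltransferase that controls the rate of entry, had 104, 96.5, 72.4, 85.4 and 86.1 FPKM in Padi4-knockout kidneys, against 119, 77.7, 71.9, 76.4 and 87.2 FPKM in WT kidneys. Its values overlapped fully, with WT1 highest and WT3 lowest. The difference was 0.06 (SE 0.147; limma adjusted p = 0.983), or 0.17 (SE 0.115) without WT1. Slc25a20, the inner-membrane carrier that exchanges acylcarnitine for carnitine, was 10.3, 10.7, 11.6, 8.90 and 10.4 FPKM in Padi4-knockout kidneys, against 9.52, 9.15, 8.09, 10.5 and 8.46 FPKM in WT kidneys. KO4 was the exception in its group and WT4 in the other, and WT1 did not stand out. Its difference was 0.17 (SE 0.0907; limma adjusted p = 0.976), or 0.18 without WT1. Cpt2, which converts acylcarnitine back to acyl-CoA, and Crat, the carnitine acetyltransferase, each had a difference of 0.09, and without WT1 of 0.28 and 0.22 in turn.

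The acyl-CoA dehydrogenases take the first step of each cycle and differ in the chain length they accept. Acadm, for medium chains, had 78.0, 65.7, 74.7, 67.2 and 68.6 FPKM in Padi4-knockout kidneys, against 171, 49.9, 56.9, 61.2 and 90.4 FPKM in WT kidneys. The 5 Padi4-knockout values were tightly grouped, and the WT values lay on both sides of them. Group means were 70.8 ± 5.25 FPKM in Padi4-knockout kidneys and 86.0 ± 50.2 FPKM in WT kidneys (SD, n = 5 each). The difference was -0.12 (SE 0.276; limma adjusted p = 0.981), and 0.16 (SE 0.151) without WT1, so the sign rested on that library. Acads, for short chains, was 47.6, 39.95, 45.8, 35.9 and 45.4 FPKM in Padi4-knockout kidneys, against 65.7, 30.9, 32.6, 36.0 and 39.7 FPKM in WT kidneys. Only KO4 among the Padi4-knockout values lay below WT4, and WT1 lay above all others. Its difference was 0.11 (SE 0.182; limma adjusted p = 0.976), or 0.29 (SE 0.11; limma adjusted p = 0.727) without WT1. The long-chain enzyme Acadl, the very-long-chain Acadvl, the branched-chain Acadsb and Acad11 had differences of -0.01, 0.14, -0.05 and 0.05. Without WT1 the differences were 0.13 for Acadl, 0.33 for Acadvl, 0.06 for Acadsb and 0.24 for Acad11, so that Acadl and Acadsb changed sign.

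Within the core spiral, Acaa2 had the smallest unadjusted p of the 40 genes. It encodes the mitochondrial 3-ketoacyl-CoA thiolase that releases acetyl-CoA from medium chains, and lies at chr18:74779197-74806207. Its values were 69.2, 60.8, 64.0, 54.8 and 55.4 FPKM in Padi4-knockout kidneys, against 57.5, 45.8, 44.9, 49.6 and 47.7 FPKM in WT kidneys. Only WT1 exceeded any Padi4-knockout value, namely KO4 and KO5. Group means were 60.9 ± 6.03 FPKM in Padi4-knockout kidneys and 49.1 ± 5.02 FPKM in WT kidneys (SD, n = 5 each). The difference was 0.30 (SE 0.0995, 95% interval 0.09 to 0.52), with an unadjusted p of 0.0102 and an adjusted p of 0.976 in limma. It was 0.36 (SE 0.0923, adjusted p = 0.547 in limma) without WT1, and 0.26 to 0.36 over all fits that left out 1 library.

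Hadha, the alpha subunit of the trifunctional protein that carries out the later steps on long chains, gave no such pattern. It had 22.2, 19.9, 20.5, 18.8 and 23.3 FPKM in Padi4-knockout kidneys, against 25.8, 21.5, 21.4, 20.5 and 21.2 FPKM in WT kidneys. Both groups lay within a narrow band apart from WT1. The difference was -0.07 (SE 0.0891, 95% interval -0.27 to 0.12; limma adjusted p = 0.976), and Hadha was the 1 mitochondrial gene that still had a lower Padi4-knockout mean without WT1, by a difference of -0.02. Hadhb, its beta subunit, Hadh, the medium- and short-chain hydroxyacyl-CoA dehydrogenase, and Echs1, the short-chain enoyl-CoA hydratase, had differences of 0.07, 0.12 and -0.00241. Without WT1 the differences were 0.16 for Hadhb, 0.30 for Hadh and 0.12 for Echs1.

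**Figure D3:**
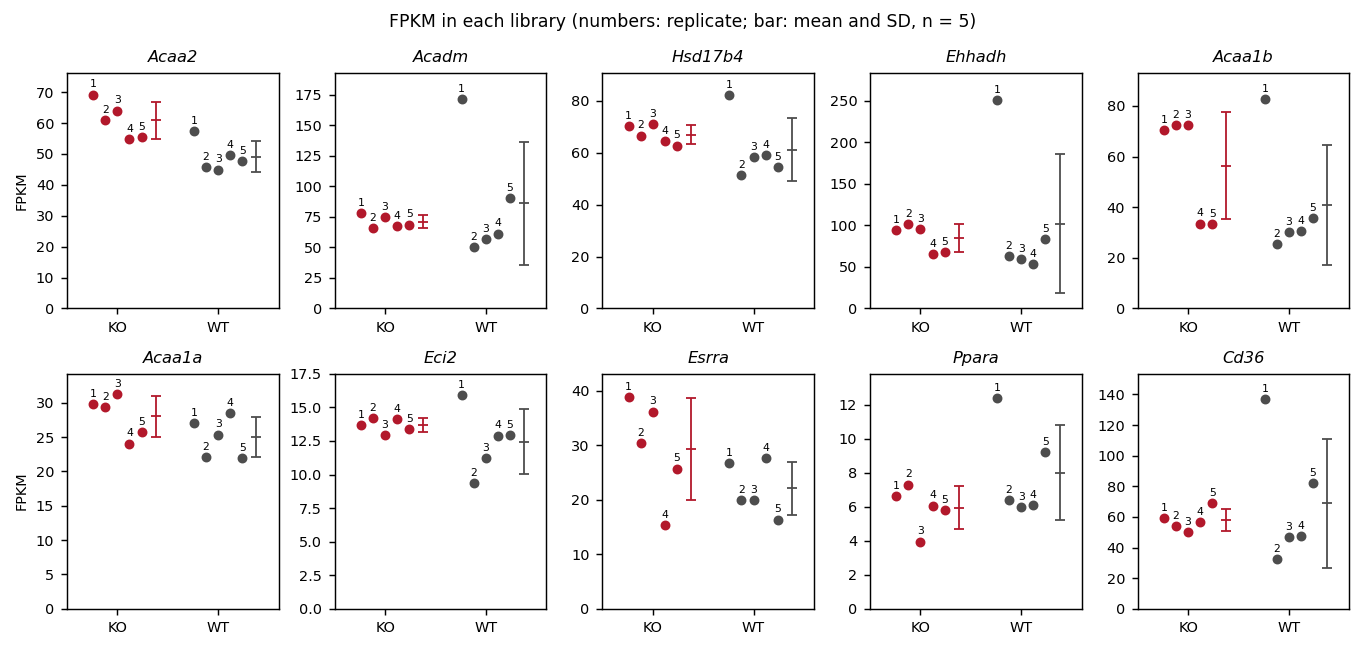
Each panel shows the FPKM of 1 gene in every library, numbered by replicate, with Padi4-knockout (KO) left of WT and the mean and SD (n = 5) beside the points. Acaa2 overlaps between groups only through WT1 at 57.5 FPKM, Acadm and Ehhadh have WT1 far above all other libraries (171 and 251 FPKM), and Acaa1b has KO1, KO2 and KO3 near 70.3 to 72.5 FPKM.

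Unsaturated fatty acids need auxiliary enzymes to move or remove double bonds. Eci1, the enoyl-CoA isomerase, had 60.5, 57.8, 64.5, 42.8 and 54.3 FPKM in Padi4-knockout kidneys, against 59.6, 39.7, 47.1, 52.6 and 49.9 FPKM in WT kidneys. Decr1, the 2,4-dienoyl-CoA reductase, had 36.7, 35.6, 38.4, 31.3 and 34.6 FPKM in Padi4-knockout kidneys, against 48.2, 24.7, 26.8, 30.9 and 33.7 FPKM in WT kidneys. In both genes KO4 was the lowest Padi4-knockout library and WT1 the highest WT library. Eci1 differed by 0.17 (SE 0.133) and Decr1 by 0.14 (SE 0.155), both with a limma adjusted p of 0.976. Without WT1 the difference was 0.23 for Eci1 and 0.28 (SE 0.105) for Decr1, where only KO4 lay inside the WT range.

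Electrons from these dehydrogenases pass through the flavoprotein subunits Etfa and Etfb to Etfdh, the oxidoreductase that hands them to ubiquinone. Etfdh had 18.0, 17.5, 17.3, 15.9 and 15.3 FPKM in Padi4-knockout kidneys, against 21.6, 11.3, 13.3, 14.2 and 17.04 FPKM in WT kidneys. WT2, WT3 and WT4 lay below every Padi4-knockout library, WT1 above them all and WT5 among them. The difference was 0.14 (SE 0.143; limma adjusted p = 0.976), or 0.26 (SE 0.11) without WT1. Etfa and Etfb had differences of 0.07 and 0.17, and of 0.26 and 0.28 without WT1.

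Bdh1, the mitochondrial 3-hydroxybutyrate dehydrogenase that interconverts the 2 main ketone bodies, was the ketone gene of the set. It had 16.8, 8.32, 11.8, 12.1 and 11.2 FPKM in Padi4-knockout kidneys, against 29.1, 9.09, 10.4, 9.67 and 14.8 FPKM in WT kidneys. WT1 was the highest library and KO2 the lowest, and the groups overlapped. The difference was -0.16 (SE 0.279; limma adjusted p = 0.976), and 0.11 (SE 0.181) without WT1.

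In peroxisomes the first oxidation is made by acyl-CoA oxidases. Acox2, which acts on branched chains and bile acid intermediates, had 15.9, 11.0, 13.0, 9.37 and 7.06 FPKM in Padi4-knockout kidneys, against 20.4, 5.07, 6.96, 7.21 and 10.8 FPKM in WT kidneys. WT1 was highest and WT2 lowest, and KO5 lay at the level of WT3 and WT4. The difference was 0.25 (SE 0.307; limma adjusted p = 0.976), or 0.52 (SE 0.224; limma adjusted p = 0.727) without WT1. Acox3, the other branched-chain oxidase of the set, differed by 0.12, or 0.25 without WT1.

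The next steps are carried out by bifunctional enzymes. Ehhadh, the L-bifunctional enzyme at chr16:21761287-21787807 and a known PPAR alpha target, had 94.6, 101, 95.9, 65.5 and 67.5 FPKM in Padi4-knockout kidneys, against 251, 63.0, 59.2, 53.3 and 83.8 FPKM in WT kidneys. WT1 was more than any other library, WT2, WT3 and WT4 were below all Padi4-knockout libraries, and WT5 lay in their midst. Means were 85.0 ± 17.02 FPKM in Padi4-knockout kidneys and 102 ± 83.9 FPKM in WT kidneys (SD, n = 5 each). The difference was -0.01 (SE 0.361; limma adjusted p = 0.998), and 0.38 (SE 0.17; limma adjusted p = 0.727) without WT1.

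Hsd17b4, the D-bifunctional enzyme at chr18:50128201-50196269, had 70.2, 66.6, 71.0, 64.3 and 62.7 FPKM in Padi4-knockout kidneys, against 82.2, 51.4, 58.4, 58.9 and 54.6 FPKM in WT kidneys. All Padi4-knockout values lay above WT2 to WT5 and below WT1. The difference was 0.15 (SE 0.122; limma adjusted p = 0.976), or 0.26 (SE 0.0831, 95% interval 0.08 to 0.44; limma adjusted p = 0.708) without WT1. Compared with Ehhadh, this enzyme had the narrower spread, with means of 67.0 ± 3.61 FPKM in Padi4-knockout kidneys and 61.1 ± 12.2 FPKM in WT kidneys (SD, n = 5 each).

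Thiolysis in peroxisomes is carried out by Acaa1a and Acaa1b, neighbouring near-identical copies on chromosome 9, and by the thiolase form of Scp2. Acaa1b had 70.3, 72.5, 72.3, 33.5 and 33.3 FPKM in Padi4-knockout kidneys, against 82.7, 25.5, 30.2, 30.5 and 35.7 FPKM in WT kidneys. KO1, KO2 and KO3 lay nearest to WT1, while KO4 and KO5 lay among WT2 to WT5. The difference of 0.50 (SE 0.335; limma adjusted p = 0.976) was the largest of the 40 and its interval ran from -0.23 to 1.23. Without WT1 it was 0.79 (SE 0.257; limma adjusted p = 0.715). Proximal tubule markers divided the Padi4-knockout libraries the same way, with medians of 0.45, 0.24 and 0.18 in KO1, KO2 and KO3, and -0.38 and -0.23 in KO4 and KO5, and their part was not tested.

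Acaa1a had 29.8, 29.4, 31.3, 24.1 and 25.8 FPKM in Padi4-knockout kidneys, against 27.1, 22.1, 25.4, 28.5 and 21.9 FPKM in WT kidneys, a narrower range in which WT1 was not the highest. The difference was 0.16 (SE 0.105; limma adjusted p = 0.976). The ratio of Acaa1b to Acaa1a was 2.36, 2.47, 2.31, 1.39 and 1.29 in Padi4-knockout kidneys, against 3.06, 1.15, 1.19, 1.07 and 1.63 in WT kidneys. This ratio repeated the pattern of Acaa1b itself. How reads that align to both copies were counted is not stated, so the split between them is uncertain. Scp2 had 102, 93.0, 93.0, 85.9 and 87.3 FPKM in Padi4-knockout kidneys, against 127, 61.7, 71.0, 77.4 and 94.4 FPKM in WT kidneys. WT2, WT3 and WT4 lay below all Padi4-knockout libraries. The difference was 0.14 (SE 0.168), or 0.29 (SE 0.12) without WT1.

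Among the auxiliary peroxisomal genes, Decr2, the peroxisomal dienoyl-CoA reductase, was the member that WT1 moved least. It had 25.0, 24.04, 24.5, 25.0 and 21.3 FPKM in Padi4-knockout kidneys, against 21.1, 17.3, 19.7, 22.8 and 24.3 FPKM in WT kidneys. KO2 and KO5 lay within the WT range, and WT4 and WT5 within the Padi4-knockout range. The difference was 0.19 with or without WT1 (SE 0.0982 with it; limma adjusted p = 0.976). Eci2, an isomerase of unsaturated chains, was named after its values were seen because its groups did not overlap without WT1. It had 13.7, 14.2, 12.9, 14.1 and 13.4 FPKM in Padi4-knockout kidneys, against 15.9, 9.34, 11.2, 12.9 and 12.9 FPKM in WT kidneys. KO3, WT4 and WT5 were nearly level, so the gap was small, and the difference was 0.14 (SE 0.116), or 0.23 (SE 0.0986; limma adjusted p = 0.727) without WT1. Amacr, the racemase that readies branched chains for oxidation, differed by 0.22, or 0.43 without WT1, and Pex11a, which takes part in peroxisome division, by 0.01, or 0.14 without WT1.

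**Figure D4:**
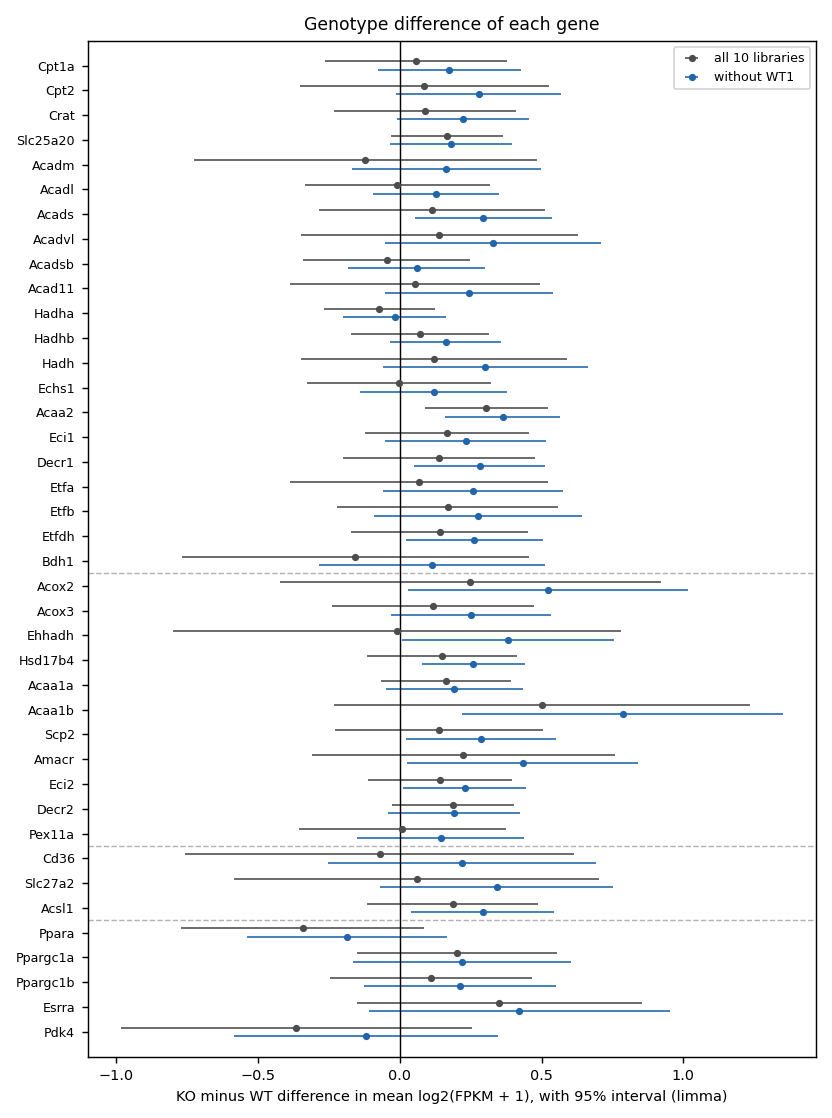
Points are Padi4-knockout (KO) minus WT differences in mean log2(FPKM + 1) for the 40 genes with 95% limma intervals, grey with all 10 libraries and blue without WT1; dashed lines part the 4 classes. With all libraries 30 points lie right of 0 (51.6% of all genes tested). Only the Acaa2 interval (0.09 to 0.52) excludes 0, as do those of 4.05% of all genes. Without WT1 37 points lie right of 0 (52.0% of all genes) and 12 intervals exclude it (6.82% of all genes), none past the adjusted threshold.

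Uptake and activation genes had WT values on both sides of the Padi4-knockout values. Cd36, the membrane fatty acid translocase, which macrophages and endothelium also express, had 59.4, 53.9, 50.03, 56.5 and 69.1 FPKM in Padi4-knockout kidneys, against 137, 32.2, 46.7, 47.3 and 82.2 FPKM in WT kidneys. WT1 and WT5 lay above the Padi4-knockout libraries and WT2, WT3 and WT4 below them. The difference was -0.07 (SE 0.313; limma adjusted p = 0.993), and 0.22 (SE 0.215) without WT1. Macrophage markers summed to 864 to 1096 FPKM in Padi4-knockout kidneys and 501 to 1079 FPKM in WT kidneys, and endothelial markers to 185 to 226 FPKM in Padi4-knockout kidneys and 176 to 253 FPKM in WT kidneys. Fat markers summed to 15.4 to 509 FPKM in Padi4-knockout kidneys and 23.2 to 208 FPKM in WT kidneys. The part of these cell types in the Cd36 values was not tested. Slc27a2, a transporter and very-long-chain acyl-CoA synthetase, was the most abundant member per length, with 424, 326, 389, 324 and 326 FPKM in Padi4-knockout kidneys, against 749, 194, 254, 320.0 and 392 FPKM in WT kidneys. The WT libraries again lay on both sides, and the difference was 0.06 (SE 0.294; limma adjusted p = 0.994), or 0.34 (SE 0.187) without WT1. Acsl1, the long-chain acyl-CoA synthetase, had 17.3, 17.6, 14.4, 14.7 and 16.3 FPKM in Padi4-knockout kidneys, against 19.1, 11.9, 13.3, 10.8 and 16.0 FPKM in WT kidneys. WT5 alone of WT2 to WT5 reached the Padi4-knockout values, and the difference was 0.19 (SE 0.138), or 0.29 (SE 0.115; limma adjusted p = 0.727) without WT1.

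The regulators did not share 1 direction. Ppara, which encodes PPAR alpha, had 6.63, 7.30, 3.95, 6.07 and 5.81 FPKM in Padi4-knockout kidneys, against 12.4, 6.37, 5.95, 6.07 and 9.19 FPKM in WT kidneys. WT1 and WT5 were highest and KO3 lowest. Its difference of -0.34 (SE 0.196; limma adjusted p = 0.976) stayed below 0 without WT1, at -0.19 (SE 0.16). Pdk4, the kinase that turns off pyruvate dehydrogenase when fat is burned, had 22.1, 29.5, 21.2, 28.6 and 28.1 FPKM in Padi4-knockout kidneys, against 67.2, 41.0, 17.2, 26.3 and 32.8 FPKM in WT kidneys. WT3 was the lowest library and WT1 the highest, and the difference was -0.37 (SE 0.283; limma adjusted p = 0.976), or -0.12 without WT1. With Hadha, these 2 genes made up the 3 members with a lower Padi4-knockout mean when WT1 was left out.

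The coactivator genes and Esrra lay the other way. Ppargc1a, the coactivator PGC-1 alpha, had 11.9, 8.78, 7.77, 11.4 and 6.90 FPKM in Padi4-knockout kidneys, against 8.27, 6.33, 7.55, 6.87 and 10.8 FPKM in WT kidneys. KO1 and KO4 were highest, WT5 came next, and WT1 did not stand out. The difference was 0.20 (SE 0.162; limma adjusted p = 0.976). Ppargc1b, its relative, was the least abundant member, with 1.92, 1.50, 0.87, 0.91 and 1.03 FPKM in Padi4-knockout kidneys, against 1.72, 1.18, 0.92, 0.68 and 0.89 FPKM in WT kidneys, from as few as 44 reads. The groups overlapped and the difference was 0.11 (SE 0.163). Esrra, the estrogen-related receptor alpha that works with PGC-1 on mitochondrial genes, had 38.8, 30.4, 36.2, 15.3 and 25.7 FPKM in Padi4-knockout kidneys, against 26.7, 19.96, 19.9, 27.6 and 16.3 FPKM in WT kidneys. KO4 was the lowest library of all and KO1, KO2 and KO3 the highest. The difference was 0.35 (SE 0.23; limma adjusted p = 0.976), or 0.42 (SE 0.241) without WT1.

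Other genes of the pathway, taken from a list of 78, were counted in the same way. Of these, 68 passed the filter on low values, 0 passed the adjusted threshold in either direction and 5 had an unadjusted p under 0.05 in limma, where 4.05% of all genes did. Of the 68, 46 had a higher mean in Padi4-knockout kidneys and 22 a lower one (51.6% of all genes had a difference above 0), with a median difference of 0.07. Without WT1 these counts were 55 and 13 (52.0% of all genes above 0), the median was 0.17, and 17 had an unadjusted p under 0.05, where 6.82% of all genes did. In 42 of 78, WT1 was the highest library, as in 19.8% of all genes tested. By role, the counts of higher and lower means were 12 and 6 for further mitochondrial and ketone genes, 16 and 4 for peroxisomal genes, 5 and 4 for uptake genes and 13 and 8 for regulators and targets. Without WT1 they became 18 and 0, 18 and 2, 6 and 3, and 13 and 8.

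Oxct1, the transferase that lets cells use ketone bodies, had 127, 81.8, 96.0, 108 and 97.7 FPKM in Padi4-knockout kidneys, against 232, 85.0, 78.6, 78.0 and 129.98 FPKM in WT kidneys. WT1 and WT5 lay above every Padi4-knockout library, and WT3 and WT4 lay below them all. The difference was -0.11 (SE 0.273; limma adjusted p = 0.981), and 0.15 (SE 0.169) without WT1, the same change of sign as in Bdh1.

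Known targets of PPAR alpha differed among themselves. Cyp4a14, a fatty acid omega-hydroxylase, had 54.7, 86.9, 63.2, 31.4 and 19.9 FPKM in Padi4-knockout kidneys, against 30.8, 22.1, 26.4, 24.3 and 30.2 FPKM in WT kidneys. KO1 to KO4 lay above all WT libraries, KO4 only just, and KO5 was the lowest of all. The difference was 0.75 (SE 0.322; limma adjusted p = 0.976), or 0.80 without WT1. Its relative Cyp4a10 had 69.5, 58.6, 63.1, 41.4 and 39.4 FPKM in Padi4-knockout kidneys, against 112, 29.7, 27.4, 30.5 and 64.2 FPKM in WT kidneys. Here WT1 was the highest, unlike in Cyp4a14, and the difference was 0.24 (SE 0.357), or 0.56 (SE 0.254) without WT1. The Cyp4a genes are close copies, so reads may be split between them in a way that is not stated. Angptl4, an inhibitor of lipoprotein lipase, and Plin2, a lipid droplet coat protein, had differences of -0.06 and -0.14, or -0.10 and 0.09 without WT1. Plin2 was high in WT1 at 127 FPKM and in KO5 at 114 FPKM. KO5 also had the highest summed level of fat markers, 509 FPKM, of which Cfd made up 295 FPKM. That sum ran from 15.4 to 177 FPKM in the other Padi4-knockout libraries and from 23.2 to 208 FPKM in the WT libraries. The part of fat content in the Plin2 values was not tested.

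**Figure D5:**
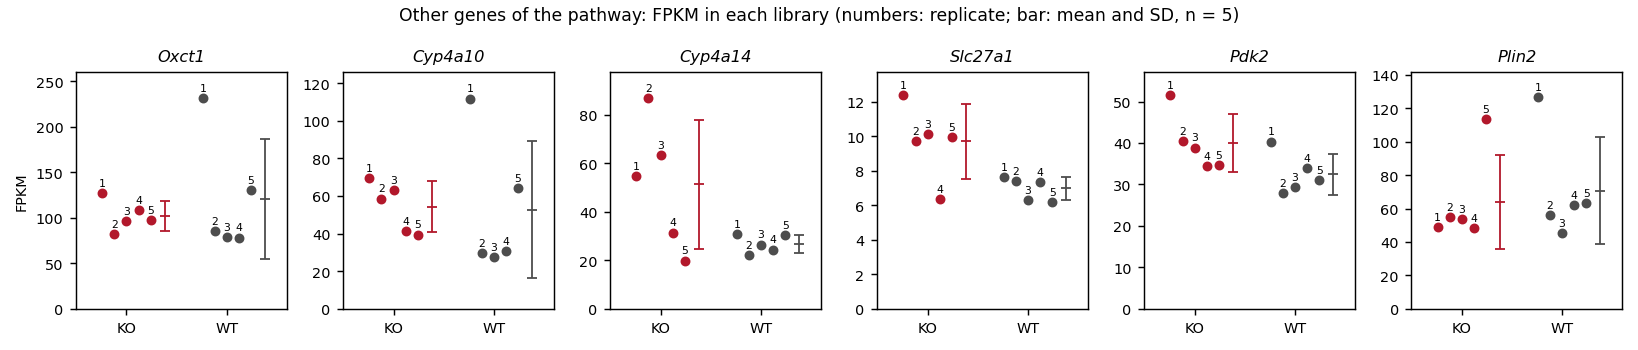
FPKM of 6 other pathway genes in every library, numbered by replicate, Padi4-knockout (KO) left of WT, with mean and SD (n = 5). Oxct1, Cyp4a10 and Plin2 have WT1 as the highest library (232, 112 and 127 FPKM), whereas the highest is KO2 for Cyp4a14 (86.9 FPKM) and KO1 for Slc27a1 and Pdk2 (12.4 and 51.6 FPKM).

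Small unadjusted p-values in this list also belonged to Slc27a1, Plin5 and Pdk2. Slc27a1, a fatty acid transporter, had 12.4, 9.71, 10.1, 6.35 and 9.95 FPKM in Padi4-knockout kidneys, against 7.65, 7.40, 6.29, 7.32 and 6.18 FPKM in WT kidneys, with KO4 as the only overlap. The difference was 0.40 (SE 0.14; limma adjusted p = 0.976). Plin5, which ties lipid droplets to mitochondria, was low throughout, with 2.26, 2.43, 3.20, 1.68 and 2.45 FPKM in Padi4-knockout kidneys, against 1.80, 1.71, 1.41, 2.29 and 1.21 FPKM in WT kidneys. Its groups overlapped through KO4, KO1 and WT4, and the difference was 0.34 (SE 0.138; limma adjusted p = 0.976). Pdk2, a kinase of the same family as Pdk4, had 51.6, 40.5, 38.9, 34.4 and 34.7 FPKM in Padi4-knockout kidneys, against 40.3, 27.9, 29.3, 33.9 and 31.0 FPKM in WT kidneys. Its difference of 0.29 (SE 0.132; limma adjusted p = 0.976) was opposite in sign to that of Pdk4.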

How the data were processed

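Bulk RNA-seq of 10 mouse kidneys, 5 Padi4-knockout and 5 WT, was analysed. TRIzol extraction and mRNA library preparation come from the labels' protocols, and alignment with HISAT2 2.0.5 from the submitters' processing notes. For the counter, its treatment of strand and shared reads, the annotation and the build, nothing is given in the sources used here. Without strand, overlapping genes cannot be told apart. The deposited values were read as FPKM, already scaled between libraries by the authors: with the deposited gene lengths they gave whole reads, within 0.01, for 100% of values. GENCODE's GRCm38 release held 99.77% of the identifiers, with matching coordinates for 98.33%, and coordinates are given on that build. Size factors were 0.859 in WT1 and 0.977 to 1.057 in the others.

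Since the table holds FPKM, the test for normalized values in the design was used: limma 3.58.1 in R 4.3.3 fitted to log2(FPKM + 1) with trend = TRUE, for 13435 genes whose mean reached 1 FPKM, genotype as the only term, and Benjamini-Hochberg adjustment over all of them at 0.05. The fit was tested on simulated data. Intervals are 95%. Gene lists are described by counts and medians, with no test. Values in every library are printed for 13 genes set by name and for the 3 genes of each class with the smallest unadjusted p with and without WT1, and for the other pathway genes likewise 5 by name and those with the 5 smallest p. Some genes of this rule are not reported here. The members, the lists and the comparison without WT1 were chosen with earlier results of these data known. Alternatives were a pseudocount of 0.1, no filter on low values or a mean of at least 5 FPKM, upper quartile scaling, limma-voom on recovered reads, a threshold of 0.1, a replicate block, smaller arms and leaving out each library. Promoters are RefSeq windows of GRCm38.p6. All pairs of libraries differed by more than sampling noise, with a chi-square per gene of 7.90 or more.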

Additional observations from a re-analysis of the deposited data

Results flagged for a closer look

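In 5 of 88 groups of 5 libraries examined, 1 library lay far from the other 4 by Dixon's criterion, where chance gives about 1 in 20, or 4.4. KO4 was low for Acadvl, at 19.9 FPKM, and KO5 was low for Decr2, at 21.3 FPKM. WT1 was high for Hadha at 25.8 FPKM, for Hsd17b4 at 82.2 FPKM and for Acaa1b at 82.7 FPKM. The 3 WT cases were thus all the same library. The criterion was applied to log2(FPKM + 1), on which WT1 was just short of it for Ehhadh, the gene with the highest ratio of WT1 to the other WT libraries.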

How the results depend on the processing

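No gene passed the adjusted threshold under any alternative run, nor at 0.1. Unadjusted p under 0.05 was reached by 544 genes, and by 536 with a pseudocount of 0.1, 1096 of 27780 with no filter on low values, 272 of 8470 with a mean of at least 5 FPKM, 527 with upper quartile scaling, 529 with limma-voom, and 308 to 1245 when 1 library was left out (without KO3 and KO4). Other scalings, pseudocounts and filters changed the sign of no member. The regulator median was -0.07 with the filter of at least 5 FPKM, which removes Ppargc1b, 0.19 with a pseudocount of 0.1 and 0.22 with limma-voom. Leaving Crat and Acad11 out of the mitochondrial arm, or Acaa1a, Acaa1b, Eci2 and Scp2 out of the peroxisomal arm, left the medians at 0.09 and 0.15.

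Leaving out 1 library moved the members with a higher Padi4-knockout mean between 24 (without WT2) and 37 (without WT1), the mitochondrial median between 0.01 and 0.23, the peroxisomal between 0.07 and 0.26, the uptake between -0.14 and 0.29 and the regulator between 0.01 (without KO1) and 0.21. Differences that changed sign in such fits ranged from -0.00445 to 0.17 for Cpt1a, -0.0211 to 0.28 for Cpt2, -0.28 to 0.16 for Acadm, -0.0786 to 0.13 for Acadl, -0.12 to 0.0591 for Acadsb, -0.0699 to 0.24 for Acad11, -0.0207 to 0.30 for Hadh, -0.11 to 0.12 for Echs1, -0.10 to 0.26 for Etfa, -0.28 to 0.11 for Bdh1, -0.17 to 0.38 for Ehhadh, -0.0820 to 0.14 for Pex11a, -0.29 to 0.22 for Cd36, -0.14 to 0.34 for Slc27a2, -0.24 to 0.15 for Oxct1, -0.14 to 0.0154 for Angptl4 and -0.36 to 0.0941 for Plin2. The cause was not tested.

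Whether replicate numbers pair the samples is left unstated by the labels. Correlations of same-numbered libraries were 0.31, 0.11, -0.12, -0.34 and -0.04, and only replicate 1 correlated best with its own number. Low correlations cannot show that the samples were unpaired. With the replicate block, 0 genes passed and 435 had an unadjusted p under 0.05. With 5 complete pairs the block leaves each gene's difference as it was, so the arm medians of 0.09 and 0.15 say nothing on its effect. Depth did not limit most members, but Ppargc1b rested on as few as 44 reads in a library and Padi4 on 6.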

Other observations

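Of the 78 other pathway genes, Pex19, the import receptor for peroxisomal membrane proteins, was chosen after its values were seen because its groups did not overlap with all libraries included. It had 27.5, 24.8, 25.6, 25.3 and 25.2 FPKM in Padi4-knockout kidneys, against 24.2, 21.9, 22.2, 24.8 and 22.3 FPKM in WT kidneys, where KO2 and WT4 were nearly level. The difference was 0.15 (SE 0.0727; limma adjusted p = 0.976), and 0.744% of all genes tested had groups that did not overlap. Markers of injured tubule cells, Havcr1, Lcn2, Krt20, Sox9, Vcam1 and Spp1, summed to 9010 to 17084 FPKM in Padi4-knockout kidneys and 11282 to 15594 FPKM in WT kidneys. All 6 had a lower mean in Padi4-knockout kidneys, with a median difference of -0.15. Without WT1 it was -0.27, with 5 lower and 1 higher, and none passed the adjusted threshold in limma in either fit. Fibroblast markers summed to 553 to 1088 FPKM in Padi4-knockout kidneys and 467 to 831 FPKM in WT kidneys, with the lowest sum in WT1, where their median lay at -0.63 relative to the mean over the 10 libraries. Of these, 10 of 10 had a higher mean in Padi4-knockout kidneys, with a median difference of 0.17, and 9 of 10 with a median of 0.04 without WT1. Endothelial markers summed to 185 to 226 FPKM in Padi4-knockout kidneys and 176 to 253 FPKM in WT kidneys, with 2 of 8 higher and 6 lower (median -0.15, and -0.15 without WT1). Markers of the thick limb, distal segments and collecting duct summed to 597 to 1317 FPKM in Padi4-knockout kidneys and 632 to 1105 FPKM in WT kidneys. Most of that sum was Umod, at 443 to 1020 FPKM in Padi4-knockout kidneys and 480 to 903 FPKM in WT kidneys. By mean, 7 of the 11 markers past the filter were higher and 4 lower in Padi4-knockout kidneys (median 0.11, and 0.15 without WT1). Macrophage markers had 8 of 9 higher and 1 lower in Padi4-knockout kidneys (median 0.13), and 2 higher and 7 lower without WT1 (median -0.07). None of 8 muscle markers passed the filter on low values.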
